A study of Homo sapiens with 9 samples.

Results

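The clustered histone genes are the protein-coding genes of chromosomes 1 and 6 in GENCODE release 44 on GRCh37 whose symbols begin with HIST1, HIST2, HIST3, H1-, H2AC, H2BC, H3C or H4C. There were 65 of them among 20162 protein-coding genes. They comprised 6 genes for the linker histone H1, 17 for H2A, 16 for H2B, 13 for H3 and 13 for H4. In the cluster on chromosome 6 (6p22) lay 52 genes, in that on 1q21 lay 11, and in that on 1q42 lay 2. Peaks of 4 lists that overlapped or touched were merged into 40703 regions, and 44 of these lay within 5 kb of the transcription start site (TSS) of a member, measured from the region's edge.

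Histones H2A, H2B, H3 and H4 form the protein core around which DNA is wound in the nucleosome, and H1 binds the linker DNA between nucleosomes. The clustered genes are the replication-dependent ones: short genes without introns in their usual form, transcribed mainly in S phase, whose mRNAs end in a stem-loop rather than a poly(A) tail. Their transcription and 3′ processing take place at the histone locus body, which is organised by NPAT. Many of the H2A and H2B genes lie head to head in pairs and share the DNA between their starts.

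The data are FAIRE-seq (formaldehyde-assisted isolation of regulatory elements with sequencing), which recovers DNA that is poor in nucleosomes, from Jurkat clone E6-1, a human T cell leukaemia line. Of 9 samples, 4 gave peak lists. By label these are NS DMSO (non-stimulated cells given the vehicle DMSO), SW DMSO (stimulus withdrawal: DMSO, then PMA and ionophore for 4 h, then 1 day of rest), NS rottlerin and SW rottlerin, in which cells were given 15 μM of the PKC inhibitor rottlerin in place of DMSO. The study's methods describe peak lists for its DMSO-treated cell states instead, and a shorter stimulation than the labels. The number of merged regions given above equals the one the study reports for those pooled states. The lists labelled NS rottlerin and SW rottlerin are therefore likely to hold DMSO-treated states, and which list holds which state is not settled. Each list is named here by its label alone. No value is read as an effect of rottlerin or of withdrawal. All libraries came from 1 cell clone, with 1 library per group. The lists can therefore be compared only by their values, with no test and no replicate error.

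Each list gives the fold enrichment of a peak over a total input library as a linear ratio, together with a score that grows with the significance of the peak. After restriction to the autosomes, X and Y the lists held 18977, 20132, 23835 and 30409 peaks in the order NS DMSO, SW DMSO, NS rottlerin and SW rottlerin, which is the order used for every set of 4 values below. The lists do not give the number of reads, so a gene without a peak is one that was not called at the depth of that library, which is unknown. Regions were found near 5 of 6 T cell markers (CD3D, CD3E, CD3G, CD247 and LCK, not CD2), near 1 of 3 B cell markers (CD79A) and near none of 3 myeloid, 2 erythroid and 2 epithelial markers. The nearest region had a peak in all 4 lists for CD3D, CD3E and CD79A, in 3 for LCK, in 2 for CD247 and in 1 for CD3G.

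A region lay within 5 kb of the TSS of 54 of the 65 histone genes, or 83.1%, against 54% of all protein-coding genes. The TSS itself lay inside a region in 40 of them, or 61.5%, against 35.8% of all protein-coding genes. Ribosomal protein genes, another group with high transcription in growing cells, had a region in 72 of 79 cases with the TSS inside it in 62, and proteasome subunit genes in 42 of 48 with the TSS inside it in 35. A peak of the NS DMSO list was within 5 kb of 52 histone genes, where 40.1% of all protein-coding genes had one. For the SW DMSO list it was 45 members against a background of 41.5%, for the NS rottlerin list 50 against 45.3%, and for the SW rottlerin list 51 against 50.1%. The lead of the NS DMSO list was 1 gene, and it was lost with a window of 1 kb (42 against 43 for SW rottlerin) or 10 kb (54 against 58), with the 50% of peaks with the highest scores (39 against 46), and where peaks had to cover 50% of a region (44 against 46 for NS rottlerin). A peak of every list was near 45 members (69.2%), against 35% of all protein-coding genes, 84.8% of ribosomal protein genes and 70.8% of proteasome genes. The farthest nearest region inside the window lay 3911 bp from H2BC14 and the nearest outside it 6638 bp from H2AC19. Members lie close together, so these counts are not of independent genes. Of the 44 regions, 33 were within 5 kb of 2 or more members, and up to 5 members shared a region. The nearest region lay over 100 bp from the TSS in 9 members.

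Members on 6p22 had a region more often than those on 1q21. On 6p22, 47 of 52 genes had a region, and the TSS was inside it in 35. On 1q21 the counts were 5 of 11 and 3 of 11, and on 1q42 both genes, H2AC25 and H2BC26, had their TSS in the same region. By family, all 6 H1 genes had a region, as did 15 of 17 H2A genes, 14 of 16 H2B genes, 10 of 13 H3 genes and 9 of 13 H4 genes. The TSS lay in a region for 4 H1, 12 H2A, 11 H2B, 7 H3 and 6 H4 genes. These contrasts of clusters and families are not like comparisons, because members differ in sequence copied elsewhere in the genome, as described below. The H4 genes without a region (H4C11, H4C12, H4C14 and H4C15) had 43.3% to 100% of their 50-base windows near the TSS copied. The H1 genes had none, and neither did H3C6, an H3 gene without a region.

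**Figure D1:**
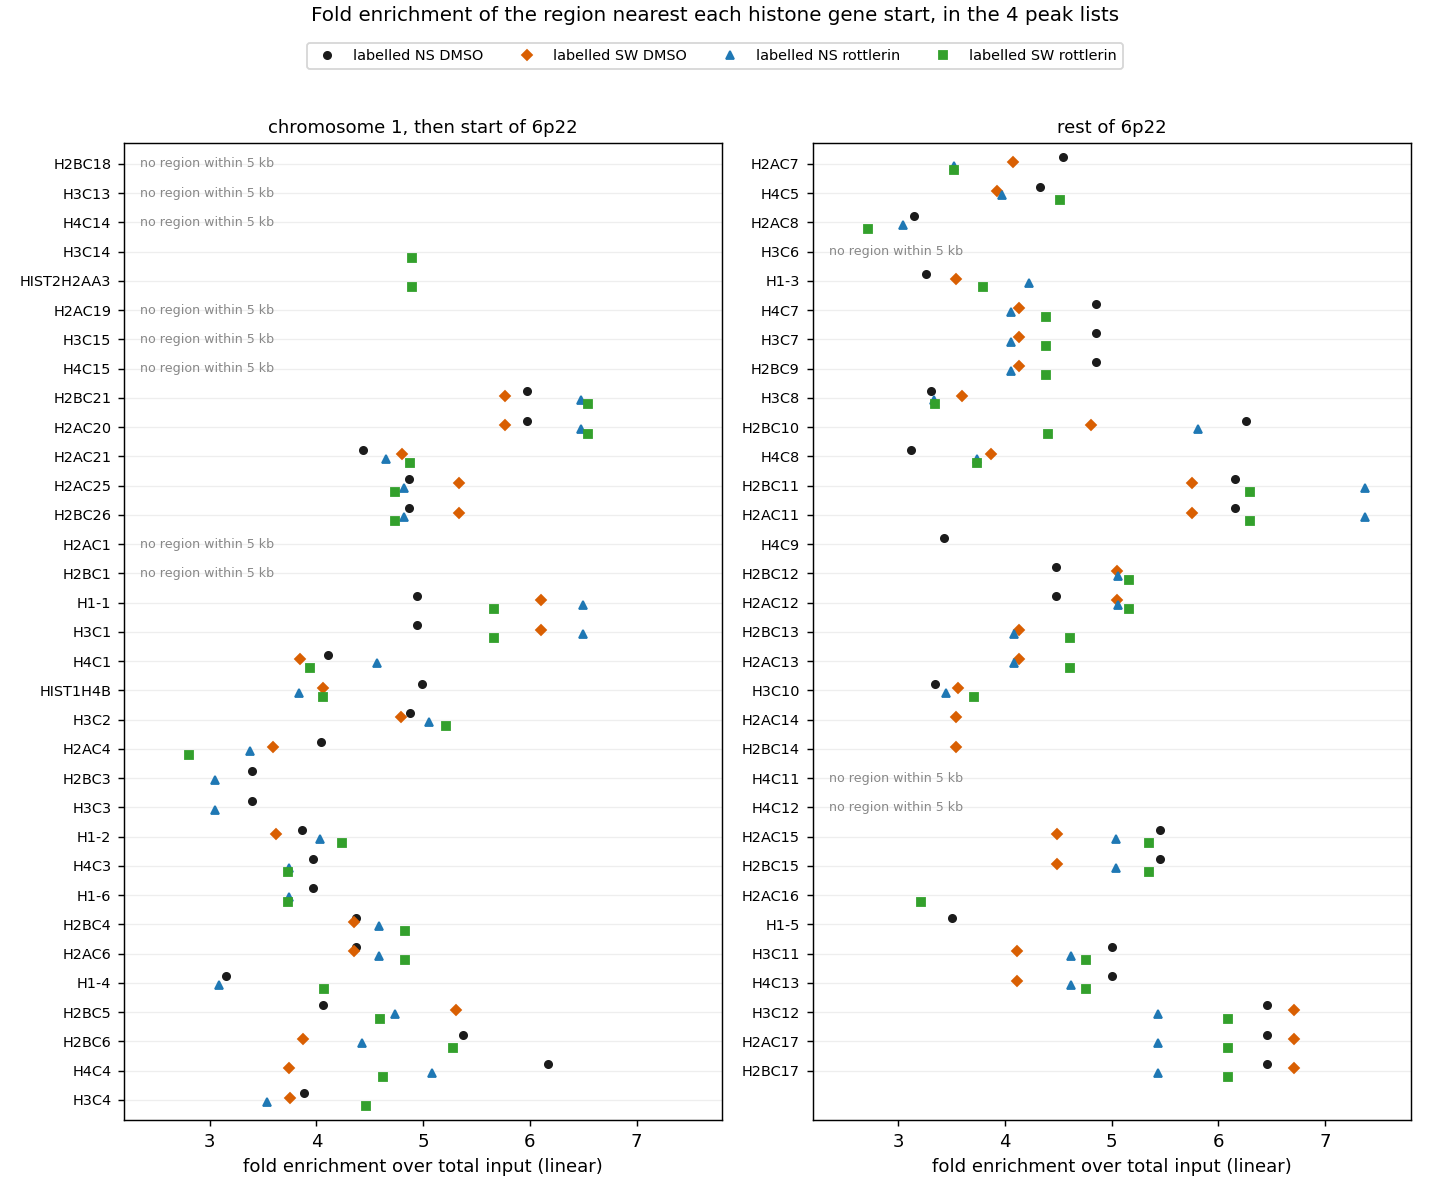
Fold enrichment over total input (horizontal, linear scale) of the region nearest to each of the 65 histone gene starts, genes in chromosome order from top to bottom and continued in the right panel, with 1 symbol per list and no symbol where the list had no peak. The values lie between 2.72 and 7.37, 11 genes have no region within 5 kb, and genes that share a nearest region carry the same values.

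The shared starts of H2A and H2B genes are shown first, because the highest fold enrichment near members in each list fell on one of them. There were 10 head-to-head pairs of an H2A and an H2B gene, with 169 to 250 bp between the starts, which account for 20 members. A region lay in the interval of 8 of these pairs, and in 7 it had a peak in all 4 lists. The sequences below are the whole interval between the 2 starts, read from the H2A start to the H2B start, on GRCh37 (hg19). Capitals mark 3 motifs found on either strand: TATAAA (the TATA box), CCAAT (bound by NF-Y) and ATTTGCAT (the octamer bound by POU2F1, or Oct-1). The first 3 intervals had peaks in all lists, the 4th lacked an NS DMSO peak, and the last 2 had no region.
H2BC11/H2AC11, chr6:27100575-27100821, minus strand: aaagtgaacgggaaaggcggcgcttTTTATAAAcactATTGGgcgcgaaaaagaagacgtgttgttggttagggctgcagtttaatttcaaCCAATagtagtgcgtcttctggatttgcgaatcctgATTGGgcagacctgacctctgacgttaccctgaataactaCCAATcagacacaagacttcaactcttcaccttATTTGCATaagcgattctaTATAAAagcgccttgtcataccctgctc
H2AC17/H2BC17, chr6:27860964-27861202, plus strand: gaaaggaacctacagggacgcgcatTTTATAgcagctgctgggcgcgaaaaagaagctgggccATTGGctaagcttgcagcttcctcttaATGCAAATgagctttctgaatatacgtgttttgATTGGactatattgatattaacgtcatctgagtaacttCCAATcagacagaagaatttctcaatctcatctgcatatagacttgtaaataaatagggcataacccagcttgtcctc
H2AC15/H2BC15, chr6:27806154-27806322, plus strand: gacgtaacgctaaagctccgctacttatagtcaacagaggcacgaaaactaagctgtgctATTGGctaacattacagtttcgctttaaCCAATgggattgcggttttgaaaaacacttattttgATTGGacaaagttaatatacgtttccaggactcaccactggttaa
H2BC13/H2AC13, chr6:27775708-27775950, minus strand: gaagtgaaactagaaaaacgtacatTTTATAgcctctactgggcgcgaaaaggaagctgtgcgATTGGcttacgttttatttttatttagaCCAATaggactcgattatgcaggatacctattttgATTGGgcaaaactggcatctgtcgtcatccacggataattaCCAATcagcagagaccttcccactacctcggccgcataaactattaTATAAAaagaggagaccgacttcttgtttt
H2AC14/H2BC14, chr6:27782556-27782799, plus strand: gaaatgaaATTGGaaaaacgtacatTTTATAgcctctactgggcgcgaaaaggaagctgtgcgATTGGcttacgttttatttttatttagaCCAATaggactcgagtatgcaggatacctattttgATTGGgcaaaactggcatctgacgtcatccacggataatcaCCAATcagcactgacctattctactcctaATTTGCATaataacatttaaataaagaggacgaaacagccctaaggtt
H2AC1/H2BC1, chr6:25726791-25727004, plus strand: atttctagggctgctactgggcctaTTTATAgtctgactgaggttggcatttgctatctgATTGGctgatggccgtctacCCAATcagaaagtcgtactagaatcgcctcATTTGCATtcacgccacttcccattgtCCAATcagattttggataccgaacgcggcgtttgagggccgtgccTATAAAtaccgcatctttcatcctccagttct

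All 10 intervals held CCAAT, 7 held the octamer and 7 held TATAAA, and their GC content ran from 38.9% to 48.9%. The motifs did not separate the intervals with a region from those without: H2AC1/H2BC1, with no region, held 3 CCAAT, 1 octamer and 2 TATAAA, and H2AC15/H2BC15, with a region in every list, held 3 CCAAT and neither of the other motifs. H2BC13/H2AC13 and H2AC14/H2BC14 were the most alike of the 45 pairs of intervals, with 212 identical bases in 246 aligned columns (86.2%), against a median of 53.5% over all such pairs. The first had a region in 3 lists and the second none.

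The region at H2AC17/H2BC17 had the highest fold enrichment near any member in the NS DMSO list. Its values were 6.45, 6.71, 5.43 and 6.09, so the NS rottlerin list was lowest. At H2BC11/H2AC11 the values were 6.16, 5.75, 7.37 and 6.30, and the 7.37 of the NS rottlerin list was the highest fold enrichment near any member in any list. H2BC21/H2AC20, on 1q21, had values of 5.98, 5.77, 6.48 and 6.54, with its interval wholly inside the region. H2AC15/H2BC15 gave 5.45, 4.49, 5.04 and 5.35, with the SW DMSO list lowest. The remaining pairs with peaks in every list were lower: H2AC25/H2BC26 ran from 4.74 to 5.33, H2BC12/H2AC12 from 4.48 to 5.16, and H2BC4/H2AC6 from 4.35 to 4.83. H2BC13/H2AC13 had no NS DMSO peak and values of 4.14, 4.09 and 4.62 in the other lists, in order. In every list these 8 pairs, where they had a peak, differed more from each other than any one of them differed across the lists.

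The pair H2AC1/H2BC1 encodes testis histones. Its nearest region lay 79000 bp from the H2AC1 start. For H2AC14/H2BC14 the nearest region lay 3666 bp from the H2AC14 start and 858 bp from H3C10, with a peak of the SW DMSO list alone (3.55).

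Of the H2B genes outside these pairs, H2BC10 had the highest value in the NS DMSO list, 6.26, with 4.81, 5.81 and 4.41 in the others. The NS DMSO list was highest there and the SW rottlerin list lowest. H2BC5 was lowest in the NS DMSO list, at 4.07, with 5.30, 4.74 and 4.60 in the others. H2BC6, chosen after its values were seen, has its annotated start 11737 bp from its coding sequence, so the region at that start (5.38, 3.87, 4.43 and 5.28) is not at the histone coding sequence. H2BC3 had a region 24 bp from its start in the NS DMSO and NS rottlerin lists alone, at 3.40 and 3.05, and this was also the nearest region to H3C3. Of the H2A genes outside the pairs, H2AC4 gave 4.05, 3.60, 3.38 and 2.80 and H2AC7 gave 4.54, 4.08, 3.52 and 3.52. The NS DMSO list was highest at both. H2AC8 had 3.15, 3.04 and 2.72 in the NS DMSO, NS rottlerin and SW rottlerin lists and no SW DMSO peak, and the region nearest to H2AC16, 26 bp from its start, had 1 peak, of 3.22 in the SW rottlerin list.

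Among H3 genes the highest value in the NS DMSO list, 6.45, belongs to the region between H2AC17 and H2BC17, which lay 60 bp from the annotated start of H3C12. That start is 2314 bp from the H3C12 coding sequence, and a second region, over the first codons, had values of 3.65, 3.66, 4.49 and 3.85. H3C11 gave 5.00, 4.12, 4.62 and 4.76. H3C1 gave 4.94, 6.10, 6.50 and 5.67, with the NS DMSO list lowest and a region of 227 bp that ends just inside the gene.

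Among H4 genes H4C4 was highest in the NS DMSO list, and its region varied the most across the lists of the 30 regions near members with a peak in every list. Its values were 6.17, 3.74, 5.09 and 4.62, so that the NS DMSO list was highest and the SW DMSO list lowest, a ratio of highest to lowest of 1.65. HIST1H4B, which GENCODE lists under its older name, gave 4.99, 4.07, 3.84 and 4.06, again with NS DMSO highest. H4C13 had its nearest region 1014 bp away, the one at the start of H3C11. H4C8 went the other way, with 3.12 in the NS DMSO list and 3.87, 3.74 and 3.74 in the others. H4C3 lacked a SW DMSO peak and gave 3.97, 3.75 and 3.73 in the other lists. H4C9 had a peak of the NS DMSO list alone, at 3.44, whose last base was the base before the TSS.

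Among H1 genes H1-2 gave 3.87, 3.63, 4.03 and 4.24 and H1-3 gave 3.26, 3.54, 4.23 and 3.80. H1-4 lacked a SW DMSO peak and gave 3.15, 3.08 and 4.07 in the others. H1-5 had a peak of the NS DMSO list alone at its start, at 3.51. H1-1 and H1-6, of which H1-6 is the testis form, had no region at their starts: the nearest lay 2501 bp away at H3C1 and 3868 bp away at H4C3. The H1 genes thus had the lowest median in the NS DMSO list at the nearest region, 3.69, against 4.54 for H2A, 5.12 for H2B, 4.85 for H3 and 4.33 for H4, and these families share nearest regions.

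The 250 bases before 3 of these starts are given because H4C4 varied most across the lists, and H4C9 and H1-5 had a peak at the start in 1 list. Capitals are as above, with AAACACA (the H1 box) added.
H4C4, chr6:26189341-26189590, minus strand: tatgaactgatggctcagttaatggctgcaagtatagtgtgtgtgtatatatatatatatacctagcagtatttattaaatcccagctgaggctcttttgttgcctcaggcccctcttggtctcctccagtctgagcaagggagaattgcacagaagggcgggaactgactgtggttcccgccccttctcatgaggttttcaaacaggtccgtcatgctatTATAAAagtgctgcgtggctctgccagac
H4C9, chr6:27106811-27107060, plus strand: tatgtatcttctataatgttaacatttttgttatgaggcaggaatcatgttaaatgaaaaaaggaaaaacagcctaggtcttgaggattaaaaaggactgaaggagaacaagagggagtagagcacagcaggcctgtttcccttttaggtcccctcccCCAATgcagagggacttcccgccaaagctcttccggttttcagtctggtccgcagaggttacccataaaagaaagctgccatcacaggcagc
H1-5, chr6:27835367-27835616, minus strand: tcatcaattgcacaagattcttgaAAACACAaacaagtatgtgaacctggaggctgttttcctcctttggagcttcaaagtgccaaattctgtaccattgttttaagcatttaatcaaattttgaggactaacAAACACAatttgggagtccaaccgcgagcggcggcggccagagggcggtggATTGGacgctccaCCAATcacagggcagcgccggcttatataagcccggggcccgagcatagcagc

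H4C4 held 1 TATAAA near its start and no CCAAT, H4C9 held 1 CCAAT, and H1-5 held 2 CCAAT and 2 H1 boxes. From 250 bases before to 50 bases after the TSS, with both strands searched and no motif contained in another, CCAAT was in 55 of 65 member promoters (84.6%) against 35.8% of the 20140 protein-coding promoters without undetermined bases. TATAAA was in 43 (66.2% against 10.9%) and the octamer in 24 (36.9% against 1.66%). The octamer was in 12 of 17 H2A and 11 of 16 H2B promoters, in 1 of 13 H3 promoters and in no H1 or H4 promoter. That H3 promoter was the one of H3C12, which reaches into the H2AC17/H2BC17 interval and holds the octamer of that pair. The H1 box was in all 6 H1 promoters and in 3 of the other members (13.8% of all members against 5.11%). TTTGGCGC, TTTCCCGC or TTTCGCGC, letters bound by E2F factors, were in 16 member promoters (24.6% against 3.26%), and TGACGTCA, the CRE, in 10 (15.4% against 2.29%). TGANTCA, the AP-1 site, was in 1 (1.54% against 6.37%). The exact letters CGTCCGC, searched for HINFP, were in 0 (against 4.76%). Other spellings of the HINFP site were not searched, so this count does not show that member promoters lack such sites. CCAAT was found in 36 of the 40 members with the TSS in a region and in 19 of the 25 others, and TATAAA in 26 and 17. Paired H2A and H2B genes share most of these bases and are not independent. The promoters of members had a median GC content of 44.3%, against 60.3% for all promoters, and observed CpG was 0.774 of the expected number at the median, against 0.694.

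Of the 44 regions near members, 30 had a peak in every list (68.2%, against 51.4% of the 11274 regions within 5 kb of any protein-coding TSS), 4 had a peak in 3 lists, 3 in 2 lists and 7 in 1 list. Only 5 had no NS DMSO peak (11.4%, against 36.1%), and 3 had an NS DMSO peak alone (6.82%, against 3.11%). These counts depended on the setting: 17 regions were in all lists where peaks had to cover 50% of a region, and 15 with the 50% of peaks with the highest scores. Without an NS DMSO peak were 12 and 9 under these settings, and 3 with the same number of highest-scoring peaks in each list. Background shares were not computed under these settings, so the contrasts with 51.4% and 36.1% hold for the reported setting only. The share of these 44 regions with a peak was 88.6% in the NS DMSO list, 72.7% in the SW DMSO list and 84.1% in each of the other lists, where the background shares were 63.9%, 67.2%, 74.9% and 87.5%. The 3 regions with NS DMSO alone were those at H4C9 and H1-5 and one 3462 bp from H2BC6. Regions in 1 to 3 lists had a median width of 234 bp and a median highest score of 37.5, against 852 bp and 100 for those in all 4. The highest fold enrichment in any list had a median of 3.47 in the former and 4.87 in the latter, and the region near HIST2H2AA3, in 1 list, reached 4.89. Merged width and a highest value both tend to grow with the number of lists, so these medians are not a like comparison.

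The median fold enrichment near members was close to that of the NS DMSO list in each of the others. At the regions shared with the NS DMSO list, the median ratio to it was 0.957 in the SW DMSO list (95% order-statistic interval 0.898 to 1.04, 30 regions), 0.979 in the NS rottlerin list (0.920 to 1.04, 35 regions) and 1.03 in the SW rottlerin list (0.951 to 1.10, 34 regions). Over all shared regions of the genome the medians were 0.980, 1.04 and 1.06. The intervals are for the median over regions, which are not replicates, and do not give the spread of single regions. Single ratios ran from 0.606 to 1.30 in the SW DMSO list. They ran from 0.770 to 1.32 in the NS rottlerin list and from 0.693 to 1.29 in the SW rottlerin list. No region near a member was at least 1.5 times higher than in the NS DMSO list, where 1.67%, 3.19% and 4.5% of all shared regions were in the SW DMSO, NS rottlerin and SW rottlerin lists. At least 1.5 times lower was 1 region, that of H4C4 in the SW DMSO list with a ratio of 0.606, and the background shares were 2.18%, 1.38% and 1.54%. Counts of 0 or 1 among 30 to 35 regions are close to these shares and are no result about the histone genes.

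**Figure D2:**
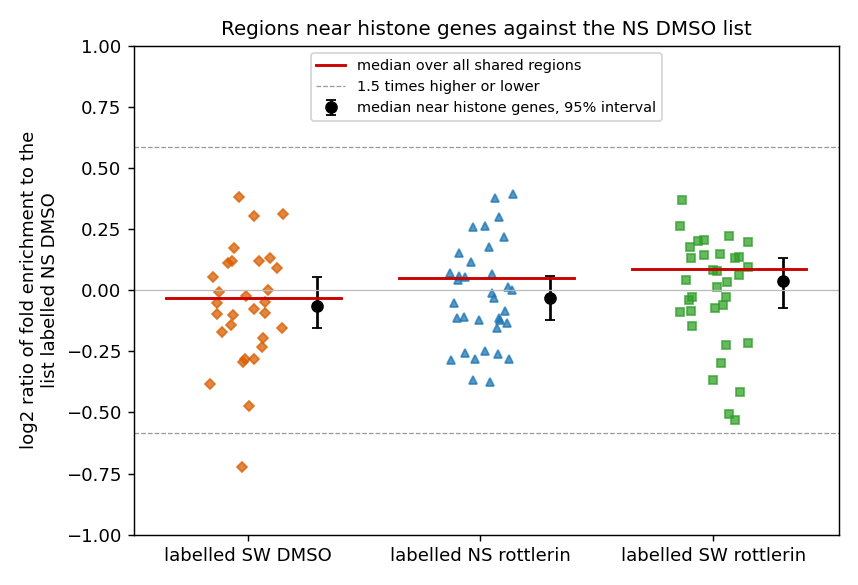
Log2 ratio of fold enrichment in each other list to that in the list labelled NS DMSO (vertical) for the regions near histone genes, 1 point per region, with the median and its 95% interval (black) and the median over all shared regions (red). Points lie on both sides of 0 in each list, and only the H4C4 region in the SW DMSO list falls outside the dashed lines at 1.5 times.

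The regions with the lowest mean ratio to the NS DMSO list over the 3 other lists were those of H4C4 (0.726), HIST1H4B (0.800), H2BC10 (0.800), H2AC4 (0.806) and H2AC7 (0.816). Those with the highest were H3C1 (1.23), H4C8 (1.21), H2BC5 (1.20), H1-3 (1.18) and H2AC12 (1.14). In all 5 of the first group the NS DMSO value was the highest of the 4, and in all 5 of the second it was the lowest, an order that the choice of the extremes favours. Over the 30 regions in every list, NS DMSO was the highest list in 9 and the lowest in 9, SW DMSO the highest in 5 and the lowest in 12, NS rottlerin in 5 and 6, and SW rottlerin in 11 and 3. Among regions near any protein-coding TSS in all 4 lists, NS DMSO was highest in 16.5% and SW rottlerin in 46.3%, and among those near members in 30% and 36.7%. The ratio of the highest to the lowest list had a median of 1.22 near members and 1.23 near all protein-coding TSSs.

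The merged regions near histone genes had a larger share of wide ones. Their median width was 527.5 bp, against 350 bp for regions near all protein-coding TSSs, and 12 of 44 (27.3%) were 1 kb or wider, against 8.84%. Of the peaks of each list before merging, 23.1%, 23.5%, 24.3% and 17.5% near members were 1 kb or wider, against 3.68%, 4.15%, 4.96% and 6.72% near all protein-coding TSSs. The median peak was 334, 361, 365 and 287.5 bp wide near members and 285, 293, 299 and 323 bp near all protein-coding TSSs, so in the SW rottlerin list it was narrower near members. The widest region, of 2106 bp, held H1-2 whole, and regions of 1041, 1603 and 1815 bp held H4C1, HIST1H4B and H4C5 whole. Since histone genes are short, a broad region can hold the gene with its promoter. The whole coding sequence lay under NS DMSO peaks in 10 members (15.4%), and under the peaks of the other lists in 7, 10 and 7. Of 5608 other genes with a coding span under 1 kb, 0.517% to 1.21% were covered so.

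In some of the 12 wide regions the length under peaks differed between lists. The regions named here were chosen after their values were seen. At H1-2 the peaks covered 1723, 540, 1609 and 619 bp, while the fold enrichment stayed between 3.63 and 4.24. At H2BC12/H2AC12 the peaks covered 1661, 420, 1118 and 627 bp, with the same lists highest and lowest as at H1-2. HIST1H4B had 1141, 1098, 1578 and 455 bp. At H2BC9 and H3C7, in contrast, the SW DMSO list covered 1054 bp and the others 246, 208 and 188 bp. At H2BC6 the SW rottlerin list was the broad one, with 1074 bp against 322, 192 and 237 bp. H4C1, H2BC11/H2AC11 and the region 1005 bp from H2BC17 were broad in every list, with 977 to 1041, 1205 to 1269 and 1263 to 1376 bp.

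**Figure D3:**
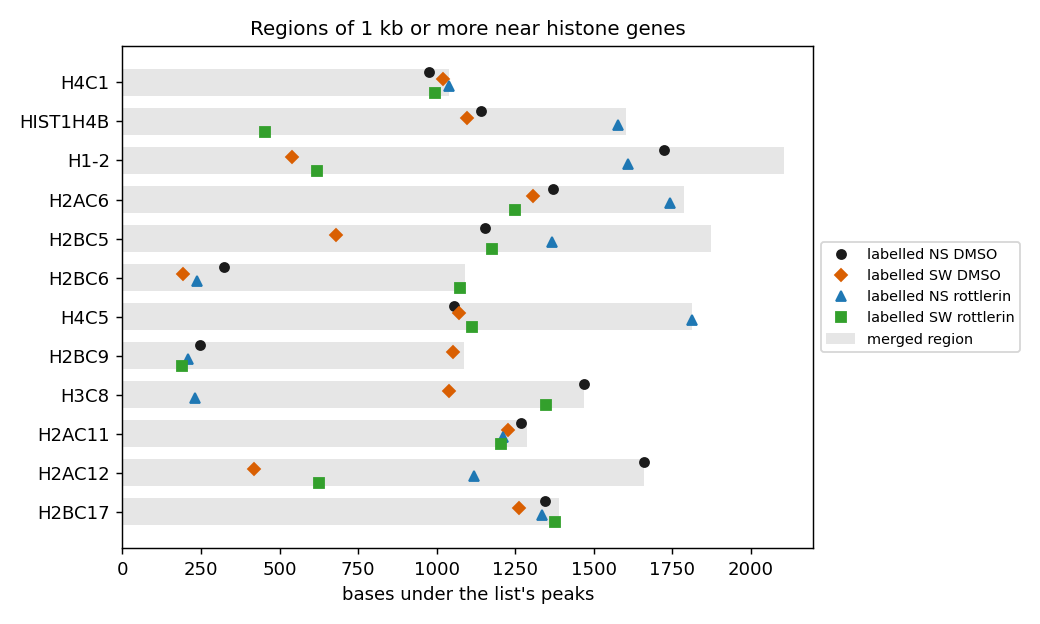
Bases under the peaks of each list (horizontal, symbols) in the 12 merged regions of 1 kb or more near histone genes (grey bars, full width), named by the closest gene and in chromosome order. H1-2 and H2AC12 show the NS DMSO list highest and the SW DMSO list lowest, and H4C1, H2AC11 and H2BC17 show all lists close together.

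In sum of bases, within the 358 kb that lie 5 kb or less from a member TSS, peaks covered 22.5 kb in the NS DMSO list, 18.4 kb in the SW DMSO list, 22.8 kb in the NS rottlerin list and 19.6 kb in the SW rottlerin list. These sums come from 39, 34, 37 and 40 peaks with a mean fold enrichment by length of 4.30, 4.24, 4.38 and 4.31. Within 5 kb of all protein-coding TSSs the covered length went from 2741 kb in the NS DMSO list to 2959, 3436 and 4344 kb in the others. With the 18977 highest-scoring peaks of each list, an alternative added after the data were seen, the lengths near members were 22.5, 17.2, 19.8 and 14.5 kb and near all protein-coding TSSs 2741, 2865, 3040 and 3535 kb. Near histone genes the NS DMSO list therefore covered more than either list labelled SW on both counts, whereas near all genes it covered the least. Among the wide regions of the full lists, H1-2 and H2BC12/H2AC12 held the largest parts of this difference. Some wide regions went the other way, such as H2BC9 in the SW DMSO list and H2BC6 in the SW rottlerin list.

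Peaks stood just before the gene starts. At 100 bases before the member TSS, a position with the highest share in each list, 61.5%, 56.9%, 61.5% and 63.1% of the 65 genes had a peak, and neighbouring positions tied with it. For all protein-coding genes the highest shares were 27.1%, 27.8%, 30.7% and 34.0%. At 500 bases after the TSS 15.4%, 10.8%, 15.4% and 9.23% of members were covered, against 3.96%, 4.35%, 5.24% and 7.42% of all genes. At 1000 bases the members gave 13.8%, 6.15%, 10.8% and 7.69%, against 1.47%, 1.63%, 2.12% and 2.97%. The 49 members with a gene record of 2 kb or less had a median record of 494 bp. For many members both positions therefore lie past the end of the gene and can fall at a neighbouring gene. Of the 40 members with the TSS in a region, the middle of the region lay upstream in 26 and downstream in 14, with a median position of -92.5 bp relative to the TSS.

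**Figure D4:**
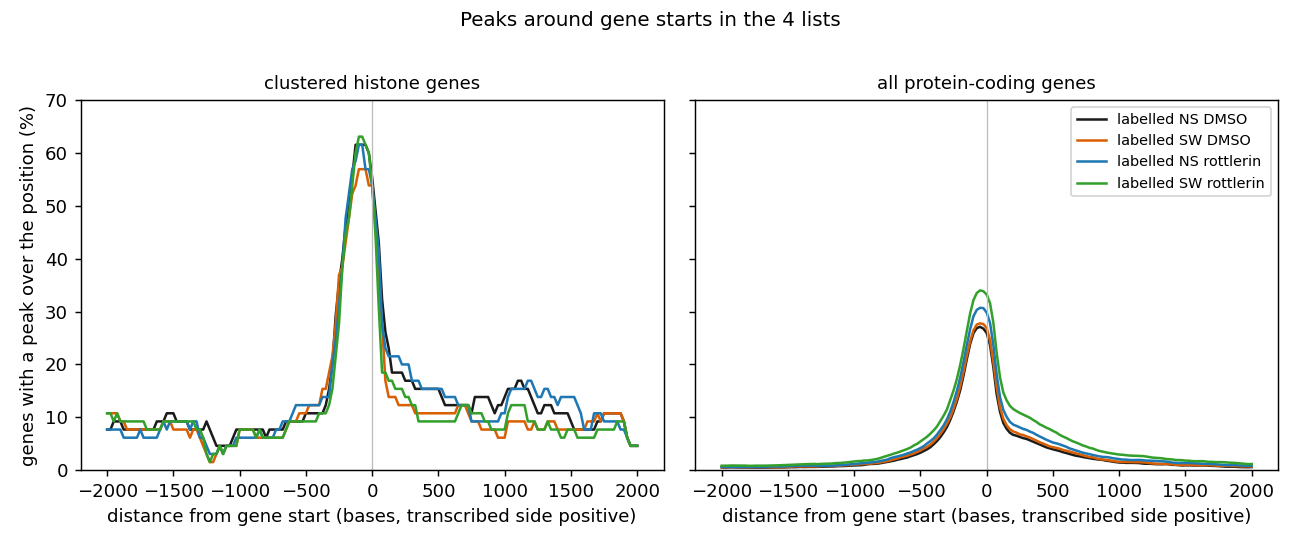
Share of genes with a peak over each position (vertical, percent) from 2 kb before to 2 kb after the gene start (horizontal, bases), for the 65 histone genes on the left and all 20162 protein-coding genes on the right, 1 line per list. The histone genes reach 56.9% to 63.1% just before the start and all genes reach 27.1% to 34.0%.

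For short genes in general the comparison can be made among genes with a start under a peak. Of members with a gene record of 2 kb or less, 26 of 49 had the TSS under an NS DMSO peak, and in 8 of these (30.8%) the peaks covered the whole record. Of the 1104 other protein-coding genes with such a record, 86 had the TSS under an NS DMSO peak and 3 (3.49%) were wholly covered. In the other lists the whole record was covered in 5 of 25, 5 of 25 and 3 of 25 members against 3 of 90, 4 of 91 and 3 of 103 other genes. The median member record was 494 bp long and the median other record 1107 bp, and the part of length in this contrast was not tested.

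The 11 members without a region were H2BC18, H3C13, H4C14, H2AC19, H3C15 and H4C15 on 1q21 and H2AC1, H2BC1, H3C6, H4C11 and H4C12 on 6p22. Those on 1q21 lie in duplicated sequence, in which a read of 50 bases can match more than 1 place. Of the 952 windows of 50 bases within 500 bases of the TSS, all had an exact second copy in the genome for H4C14, H3C14, HIST2H2AA3, H2AC19, H3C15 and H4C15, 71.6% had one for H3C13 and 59.9% for H2BC18. Of these 8 genes none had its TSS in a region, and 2, H3C14 and HIST2H2AA3, had a region within 5 kb: 1 peak of the SW rottlerin list alone, at 4.89, lying 3040 and 1342 bp from their starts. Of the 57 members with fewer copied windows, 52 had a region and 40 had their TSS in it. On 6p22, H4C11 and H4C12 each had a copy for 43.3% of windows, H2AC14 for 34.3% and H2BC14 for 20.9%, while H2AC13, whose TSS lay in a region, had one for 38.3%. H2AC1, H2BC1 and H3C6 had no copied window. How multiply mapping reads were treated is not given in the sources used here, and the part of copied sequence in the absence of peaks was not tested.

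Genes that act on the histone genes mostly had a region too. It lay near 13 of 14 genes of histone transcription and 3′ processing, with the TSS inside a region in 11, and the exception was CPSF2. Of all protein-coding genes, 54% had a region and 35.8% had the TSS inside one, which is the background for each group here. NPAT, which starts histone transcription, gave 5.97, 7.27, 8.41 and 8.62, the NS DMSO list being lowest. E2F1 gave 7.05, 6.45, 6.63 and 6.42, and SLBP, which binds the stem-loop of histone mRNA, gave 4.64, 3.93, 3.80 and 4.26. HINFP, which binds H4 promoters, ran from 5.39 to 6.18 and POU2F1 from 4.47 to 5.32. Of 8 histone chaperone genes 7 had a region, all with peaks in every list, the exception being CHAF1B. Of 12 histone genes outside the clusters, 9 had a region and the TSS lay inside it in 5. They are variant or replication-independent genes together with the H4 gene H4C16. H2AJ and H4C16 carried the same values at their nearest region (3.89, 4.60, 4.11 and 3.65), so they are not independent. H2AX gave 7.33, 6.49, 7.62 and 7.56 and H2AZ1 gave 5.88, 5.84, 6.13 and 8.00, while MACROH2A1, MACROH2A2 and CENPA had no region. H1-10 had a SW DMSO peak alone, at 2.55.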

How the data were processed

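FAIRE-seq libraries of Jurkat cells were sequenced by the authors as 50-base single-end reads, trimmed with CutAdapt, mapped to hg19 with Bowtie2 and freed of duplicates with Picard. Per the study's methods, peaks were called per sample against total input with the broad option of MACS2. In each deposited list a peak has a score, a fold enrichment (a ratio), and p and q values on the −log10 scale. Only peaks on the autosomes, X and Y were used. Overlapping or touching peaks of the 4 lists were merged, and a list's value in a region was its highest fold enrichment. TSSs were the 5′ ends of gene records in GENCODE release 44 on GRCh37, from which all sequences were read.

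Named genes were the members without a region or whose nearest region lacked a list, the 3 highest of each family in the NS DMSO list, and the 5 regions with the highest and the 5 with the lowest mean ratio. Members and gene lists were chosen with earlier results of these data known. Intervals were compared by global alignment. The window, the start sites, the peaks kept, the overlap, the value per region and the threshold were varied. The scripts were tested on simulated data. With 1 library per group there is no test. The other 5 samples were not analysed here. Depth, and hence precision, is unknown. The tools were matplotlib 3.10.9, scipy 1.17.1, pandas 2.3.3 and numpy 2.4.6 under Python 3.11.15.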

Additional observations from a re-analysis of the deposited data

How the results depend on the processing

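No paired analysis was possible because each group has 1 library. Under 12 alternative settings, 79 of 95 recomputed values stayed within limits. The limit was 1.5 times the reported count, the interval of the reported median or, for the length under peaks, no change. When each list was restricted to its 50% of peaks with the highest scores, 15 regions near members were common to all 4 lists and 9 lacked an NS DMSO peak, against 30 and 5 as reported. Where a list was counted only if its peaks covered at least 50% of a region, these were 17 and 12. With the same number of highest-scoring peaks in each list, 3 lacked an NS DMSO peak. Division by the median ratio over all shared regions gave 2 regions at least 1.5 times lower in the SW rottlerin list, against 0. At a threshold of 5/4 times, 1 region was higher and 3 lower in the SW DMSO list, 2 and 2 in the NS rottlerin list and 1 and 4 in the SW rottlerin list, and at 2 times 0 were lower in the SW DMSO list. With the same number of peaks in each list, an alternative added after seeing the data, the length under peaks near members was 17.2 kb in the SW DMSO list, 19.8 kb in the NS rottlerin list and 14.5 kb in the SW rottlerin list. By construction these settings keep fewer peaks, ask for more overlap, rescale the ratios or move the threshold. Background shares for the counts of regions were not computed under these settings, so those counts are no result about the histone genes. The number of members with a region ran from 45 with a window of 1 kb to 58 with one of 10 kb, and was 52 without the duplicated copies on 1q21. The lists give no depth, so a missing peak sets no limit on how open a start was.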

Other observations

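Histone pseudogenes on chromosomes 1 and 6 were set beside the genes. Of 23 such pseudogenes, 11 had a region within 5 kb and 2 were overlapped by one. Of all protein-coding genes, 54% had a region within 5 kb of the TSS, so the first count is no excess over that share. Other pseudogenes were not counted, and the count of overlaps has no background. Some of the regions near histone pseudogenes were already counted for members, such as the H2BC10 region near H2AC10P. H2BC27P on 1q42 was overlapped by a region with a peak in every list, at 5.42, 5.19, 4.90 and 4.83 in the order NS DMSO, SW DMSO, NS rottlerin and SW rottlerin. H1-12P on 6p22 was overlapped by a region at 3.59, 3.40, 2.95 and 3.70, which lay 1672 bp from H3C4. The region nearest to H2AC5P, 1 bp from its edge, was the one 24 bp from H2BC3 with peaks in the NS DMSO and NS rottlerin lists.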
